A study of Mus musculus with 8 samples.

Results

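Described here are 38 mouse Hox genes, of 23389 gene symbols in the deposited tables, taken by symbols made of Hox, a cluster letter from a to d and a paralogue number. They encode homeodomain transcription factors and lie in 4 clusters, with 10 of the genes in HoxA, 10 in HoxB, 9 in HoxC and 9 in HoxD. Gene expression was measured by RNA-seq of poly-A RNA in 8 libraries, 2 per group, and the study asks how induced pluripotent stem (iPS) clones made with 3 factors and interleukin 6 compare with other cells. The 3F + IL6 iPS clones were derived from mouse embryonic fibroblasts with Oct4, Klf4 and Sox2 and are labelled as treated with IL6 at 10 ng/mL, on a BALB/c background. The 4F iPS clones are also BALB/c; their factors are not named in the labels. The embryonic stem (ES) cells are the D3-GFP line, of 129S2/SvPas background, and the mouse embryonic fibroblasts (MEF) are BALB/c. Per the series' design text, the clones within each kind arose from separate derivations, and the duplicates of ES cells and MEF are biological. Strain and cell type change together in each comparison with ES cells and cannot be told apart there.

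Hox genes give cells of the embryo their position along the body axis. Genes with low paralogue numbers, at the 3′ end of a cluster, are used early and in anterior regions, and genes with high numbers, at the 5′ end, later and in posterior regions and limbs. In pluripotent cells the clusters are known to be held at low expression under Polycomb-bound chromatin, while fibroblasts are known to keep the Hox code of the body site they came from.

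On mm10 (GENCODE M21), the HoxA genes described lie at chr6:52162417-52260880 on the minus strand, and the other clusters are on the plus strand. HoxB spans chr11:96194316-96368256, HoxC chr15:102921103-103036852 and HoxD chr2:74668310-74765142. To show what start regions of high and near-silent members look like, promoters from the ends of HoxD and from HoxB are given (RefSeq, GRCm38.p6; 250 bases before to 50 bases after the start), with CG dinucleotides in capitals.
Hoxd13 promoter, chr2:74667975-74668274, plus strand: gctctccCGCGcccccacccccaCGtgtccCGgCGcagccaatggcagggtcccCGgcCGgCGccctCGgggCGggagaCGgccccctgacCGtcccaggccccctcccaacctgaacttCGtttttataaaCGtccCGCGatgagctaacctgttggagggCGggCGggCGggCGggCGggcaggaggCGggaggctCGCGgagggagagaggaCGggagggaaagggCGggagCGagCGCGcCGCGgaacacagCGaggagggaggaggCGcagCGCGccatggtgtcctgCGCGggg
Hoxd1 promoter, chr2:74762730-74763029, plus strand: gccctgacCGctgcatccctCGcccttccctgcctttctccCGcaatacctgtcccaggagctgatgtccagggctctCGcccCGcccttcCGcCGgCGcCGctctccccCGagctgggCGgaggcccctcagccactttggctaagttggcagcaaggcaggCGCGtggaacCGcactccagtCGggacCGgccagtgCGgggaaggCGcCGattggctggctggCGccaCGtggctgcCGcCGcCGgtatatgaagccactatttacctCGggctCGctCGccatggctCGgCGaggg
Hoxb8 promoter, chr11:96281655-96281954, plus strand: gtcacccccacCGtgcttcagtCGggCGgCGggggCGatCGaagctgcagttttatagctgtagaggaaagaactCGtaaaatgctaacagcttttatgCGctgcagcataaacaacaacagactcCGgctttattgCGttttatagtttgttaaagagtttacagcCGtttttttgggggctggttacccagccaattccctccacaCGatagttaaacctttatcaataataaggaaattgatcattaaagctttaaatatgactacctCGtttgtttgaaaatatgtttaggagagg
Hoxb1 promoter, chr11:96365508-96365807, plus strand: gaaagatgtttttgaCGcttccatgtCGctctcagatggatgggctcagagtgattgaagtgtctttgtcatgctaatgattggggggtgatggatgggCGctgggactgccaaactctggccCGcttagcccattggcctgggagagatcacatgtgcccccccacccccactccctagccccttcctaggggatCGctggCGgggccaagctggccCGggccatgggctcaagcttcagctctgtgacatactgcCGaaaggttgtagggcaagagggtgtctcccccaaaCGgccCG
Hoxd13 and Hoxb8 were among the members with expression in MEF, while Hoxb1 and Hoxd1 were near 0 in all 8 libraries. The number of CG pairs did not separate them: Hoxd13 held 37 and Hoxb8 held 13, against 29 in Hoxd1 and 10 in Hoxb1. The reference table held 24 promoters of 22 Hox genes, with a median of 14.5 CG pairs, against 7 over all 32851 promoters. The sequence TGATNNAT, the core of a site that Pbx and Hox proteins can bind together, was searched on both strands and was found in 4 of the 24 Hox promoters (16.7%) and in 8.85% of all promoters. It was present once in each of the Hoxb8 and Hoxb1 promoters shown and in neither of the HoxD promoters.

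No unit is named for the deposited levels. They were taken to be RPKM, that is, corrected for gene length and for library depth. Comparisons of level between genes rest on that assumption, and they are less certain where the gene length used is in doubt. Hox genes were near silent in all the pluripotent cells and broadly expressed in MEF. Of the 38, 2 reached 1 RPKM in both libraries of 3F + IL6 clones, 1 in 4F clones and 1 in ES cells, against 29 in MEF. The summed Hox level was 9.12 and 14.1 RPKM in 3F + IL6 clones 1 and 2, 10.2 and 9.16 RPKM in 4F clones, and 8.98 and 9.49 RPKM in ES cells, against 154.9 and 159.0 RPKM in MEF. The pluripotent groups thus held 7.41%, 6.17% and 5.89% of the MEF mean, in the order 3F + IL6, 4F and ES. In bulk RNA, fewer cells expressing a gene and less RNA per cell cannot be told apart.

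The libraries have an estimated depth of 11800000 to 18200000 reads. All 8 pluripotency markers were higher in each pluripotent group than in MEF, so the group labels hold on these genes. Over all genes 49.4%, 49.2% and 49.7% were called higher than in MEF in 3F + IL6 clones, 4F clones and ES cells. Of 12 fibroblast markers, 11 were higher in both kinds of clone than in ES cells, where 33.1% and 33.7% of all genes were called higher in 3F + IL6 and 4F clones. The summed level of the 12 was 183.8 and 280.6 RPKM in 3F + IL6 clones and 172.9 and 145.9 RPKM in 4F clones, against 11.5 and 12.1 RPKM in ES cells. In MEF that sum was 2764 and 2754 RPKM, and 0 of the 12 were listed at 0 in both libraries of any group. Fibroblast transcripts were thus present in the clone libraries and nearly absent from ES libraries, as with several Hox genes described here; their part in the Hox results was not tested.

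MEF expressed a mainly central and posterior set. Hoxb9 had 17.4 and 17.5 RPKM and Hoxc6 had 17.4 and 17.4 RPKM, the top of the order, and these did not differ beyond the spread of the libraries. Hoxd13, a limb and genital gene, followed with 12 and 11.9 RPKM. Hoxc8 had 11.0 and 11.9 RPKM, close to Hoxd13, and Hoxc10 had 10.5 and 10.3 RPKM. Paralogue numbers 5 to 9 held 55.7% of the summed MEF level, numbers 10 to 13 held 29.8% and numbers 1 to 4 held 14.4%. Hoxb1, a hindbrain gene, was listed at 0 in both MEF libraries, and Hoxd1 had 0 and 0.0884 RPKM there.

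**Figure D1:**
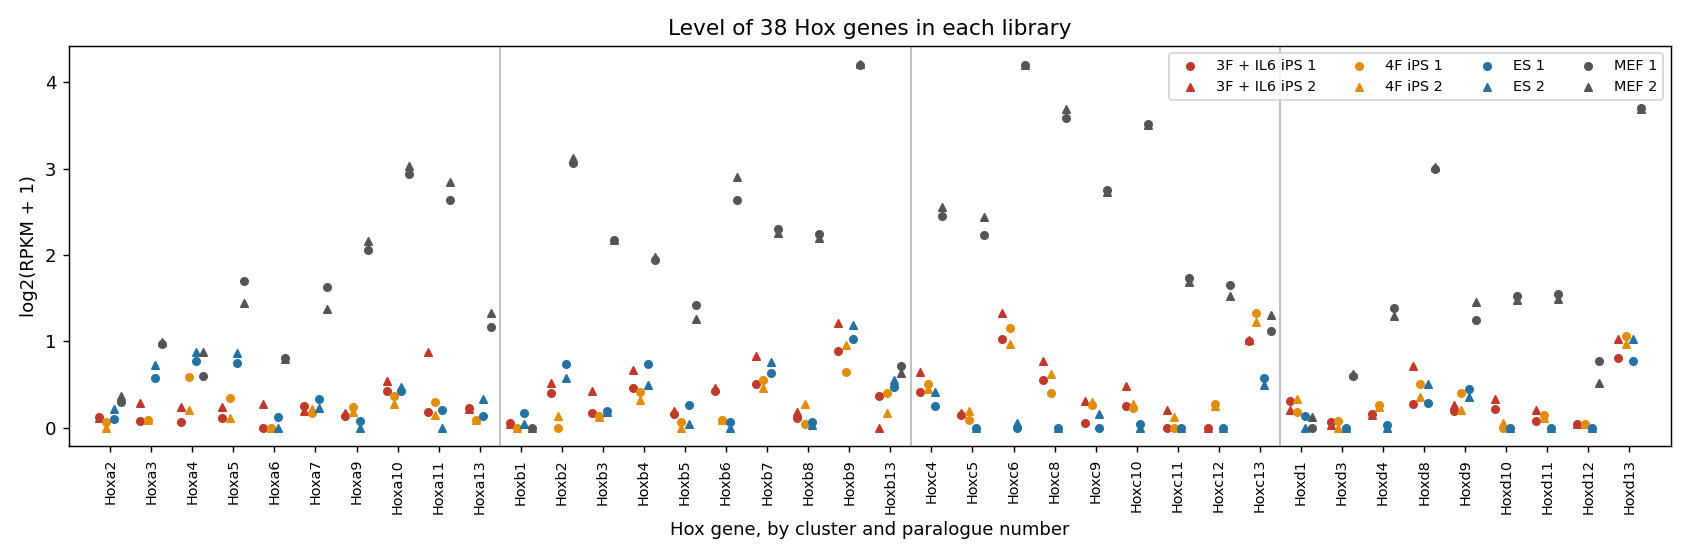
Level of the 38 Hox genes in each of the 8 libraries, as log2(RPKM + 1), grouped by cluster and ordered by paralogue number; circles are library 1 and triangles library 2 of each group. MEF points lie above all others for most genes, with exceptions such as Hoxb1, Hoxc13 and Hoxd1.

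Against MEF, all 3 pluripotent groups had lower Hox levels nearly throughout. Tests used limma on log2(RPKM + 1) over all 13200 genes with at least 1 RPKM in at least 2 libraries, with Benjamini-Hochberg adjusted p under 0.05 as the call. Of the 38 members, 29 passed that filter, and 25 of these passed only through MEF, so that they had to differ. Their counts are given as a description. In 3F + IL6 clones, 4F clones and ES cells, 28, 28 and 29 of the 29 were called lower and 0 higher than in MEF, where 32.6%, 34.4% and 32% of all genes were called lower and 49.4%, 49.2% and 49.7% higher. Without the filter all 38 could be tested, and limma called 35, 34 and 34 lower in these groups, where 25.2%, 26.8% and 25.2% of 19478 genes were lower and 38.9%, 38.7% and 37.4% were higher. The 3 comparisons share the MEF libraries.

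The 9 members that missed the filter were Hoxa2, Hoxa3, Hoxa4, Hoxa6, Hoxb1, Hoxb13, Hoxd1, Hoxd3 and Hoxd12. The 4 that passed on libraries outside MEF were Hoxb9, Hoxc6, Hoxc13 and Hoxd13. Of these, Hoxb9, a gene of the thoracic region, had 0.850 and 1.32 RPKM in 3F + IL6 clones, 0.564 and 0.938 RPKM in 4F clones and 1.03 and 1.27 RPKM in ES cells, against 17.4 and 17.5 RPKM in MEF. All pluripotent libraries were far below MEF and overlapped with each other. The log2 difference from MEF was -3.16 ± 0.15 (SE) in 3F + IL6 clones (limma adjusted p = 1.3e-06), -3.41 ± 0.15 in 4F clones (adjusted p = 8.5e-07) and -3.10 ± 0.15 in ES cells (adjusted p = 1.3e-06), each on the log2(RPKM + 1) scale, which understates the change of low genes.

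Hoxd13 behaved likewise. It had 0.745 and 1.04 RPKM in 3F + IL6 clones, 1.08 and 0.954 RPKM in 4F clones and 0.711 and 1.04 RPKM in ES cells, against 12 and 11.9 RPKM in MEF. The log2 difference from MEF was -2.78 ± 0.12 in 3F + IL6 clones, -2.68 ± 0.12 in 4F clones and -2.80 ± 0.12 in ES cells (SE; limma adjusted p = 9.0e-07, 1.0e-06 and 7.9e-07). Hoxa10, a posterior HoxA gene, had 0.346 and 0.461 RPKM in 3F + IL6 clones, 0.294 and 0.215 RPKM in 4F clones and 0.344 and 0.387 RPKM in ES cells, against 6.66 and 7.20 RPKM in MEF. Hoxa10 differed from MEF by -2.50 ± 0.09, -2.66 ± 0.09 and -2.54 ± 0.09 (SE) on the log2 scale in the same order. Hoxa10 passed the filter only through MEF, so it had to differ and these values are a description.

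Hoxb2, which patterns the hindbrain, had 0.321 and 0.432 RPKM in 3F + IL6 clones, 0 and 0.0980 RPKM in 4F clones and 0.665 and 0.493 RPKM in ES cells, against 7.36 and 7.71 RPKM in MEF. The log2 difference from MEF was -2.63 ± 0.10 in 3F + IL6 clones and -3.03 ± 0.10 in 4F clones (SE). This is a description too, as Hoxb2 passed the filter only through MEF. Hoxb2 overlaps exons of an antisense RNA, and the library kit does not mark strand, so reads of the 2 cannot be told apart.

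The tested member that was not called lower in the clones was Hoxc13. This gene of tail, nail and hair development had 1.00 and 1.03 RPKM in 3F + IL6 clones and 1.52 and 1.33 RPKM in 4F clones, against 1.17 and 1.48 RPKM in MEF. The log2 difference was -0.20 ± 0.10 in 3F + IL6 clones and 0.06 ± 0.10 in 4F clones (SE; limma adjusted p = 0.10 and 0.57).

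Although the summed Hox level overlapped between each kind of clone and ES cells, its makeup differed. HoxA held 16.5% of it in 3F + IL6 clones and 14.4% in 4F clones, against 33.8% in ES cells, while HoxC held 34.1% in 3F + IL6 clones and 42.2% in 4F clones, against 8.77% in ES cells. Summed HoxA was 1.21 and 2.61 RPKM in 3F + IL6 clones and 1.80 and 0.988 RPKM in 4F clones, against 2.97 and 3.28 RPKM in ES cells. Summed HoxC was 3.19 and 4.74 RPKM in 3F + IL6 clones and 4.14 and 4.05 RPKM in 4F clones, against 0.717 and 0.903 RPKM in ES cells. Neither sum overlapped between clones and ES cells. With 2 libraries a group an exact permutation test cannot go below p = 0.333, so no test of the sums was made. By their means, the HoxA genes did not all move together. Hoxa3, Hoxa4 and Hoxa5 were the highest of them in ES cells, with means of 0.573, 0.772 and 0.746 RPKM. Hoxa9 and Hoxa11 had higher means in the clones. Hoxa9 had 0.0979 and 0.123 RPKM in 3F + IL6 clones and 0.185 and 0.139 RPKM in 4F clones. In ES cells it had 0.0556 and 0 RPKM. Hoxa11 had 0.132 and 0.838 RPKM in 3F + IL6 clones and 0.233 and 0.106 RPKM in 4F clones. Its ES values, 0.156 and 0 RPKM, overlapped with both kinds of clone. With the filter, limma called neither gene between either kind of clone and ES cells. HoxD was 1.75 and 2.61 RPKM in 3F + IL6 clones and 2.35 and 1.98 RPKM in 4F clones, against 1.42 and 1.75 RPKM in ES cells, so that 3F + IL6 clone 1 and ES library 2 were level. Both 4F clones lay above ES cells in HoxD. HoxB was 2.96 and 4.17 RPKM in 3F + IL6 clones, 1.93 and 2.15 RPKM in 4F clones and 3.88 and 3.56 RPKM in ES cells. The HoxB sums of 4F clones thus lay below those of ES cells and of 3F + IL6 clones, while the last 2 groups overlapped.

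**Figure D2:**
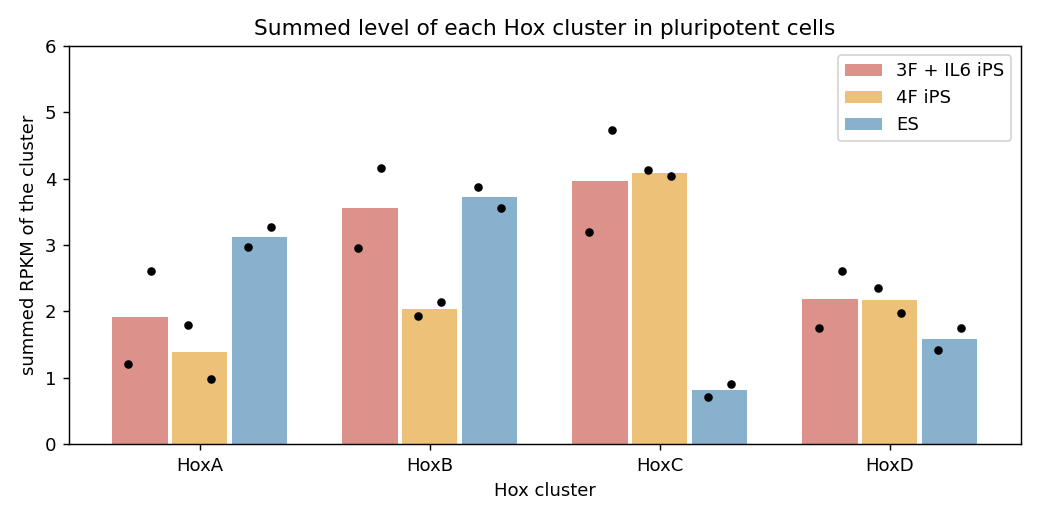
Summed RPKM of each Hox cluster in 3F + IL6 iPS, 4F iPS and ES; bars are means of 2 libraries and points the libraries. The HoxA sum is higher in ES than in the clones, at 2.97 and 3.28 RPKM, and the HoxC sum is lower there, at 0.717 and 0.903 RPKM.

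By single genes, limma called 6 Hox genes higher and 1 lower in 3F + IL6 clones than in ES cells, where 33.1% and 30.3% of all genes were called, and 5 higher and 2 lower in 4F clones than in ES cells, where 33.7% and 33.5% were called. Of the 29 members tested, a smaller share was called in each direction than of all genes. The count of higher genes was 3 in 3F + IL6 clones without ES library 2, 9 there without 3F + IL6 clone 1, and 3 in 4F clones when any of the 4F or ES libraries was left out. After quantile normalization of the log2 values the split was 2 higher and 10 lower for 3F + IL6 clones and 3 higher and 10 lower for 4F clones, where 28% and 34.8% of all genes were called for 3F + IL6 clones and 30.3% and 35.8% for 4F clones. Without the filter it was 6 higher and 3 lower of 38 in both, where 25.4% and 21.8% of all genes were called for 3F + IL6 clones and 25.5% and 24.2% for 4F clones.

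Hoxc6, a gene of the thoracic region, showed the largest rise. It had 1.03 and 1.5 RPKM in 3F + IL6 clones and 1.23 and 0.953 RPKM in 4F clones, against 0 and 0.0421 RPKM in ES cells. Low values stand in ratios of whole reads, which put these at 22 and 34 reads in 3F + IL6 clones and 23 and 19 in 4F clones, against 0 and 1 in ES cells. The log2 difference from ES cells was 1.14 ± 0.12 in 3F + IL6 clones and 1.03 ± 0.12 in 4F clones (SE; limma adjusted p = 0.00026 and 0.00038), and both remained called under every alternative that tested Hoxc6. Both kinds of clone stayed below MEF, with differences of -3.03 ± 0.12 and -3.14 ± 0.12 on the log2 scale (adjusted p = 6.6e-07 and 5.2e-07); Hoxc6 was at 7.30% of the MEF mean in 3F + IL6 clones, 6.27% in 4F clones and 0.12% in ES cells.

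Hoxc8, which acts in the thoracic skeleton and spinal motor neurons, had 0.47 and 0.708 RPKM in 3F + IL6 clones and 0.321 and 0.535 RPKM in 4F clones, and was listed at 0 in both ES libraries. The log2 difference from ES cells was 0.66 ± 0.12 in 3F + IL6 clones and 0.51 ± 0.12 in 4F clones (SE; limma adjusted p = 0.0023 and 0.0068). Hoxc13 had 0.492 and 0.409 RPKM in ES cells, below the clone values given above, with differences of 0.48 ± 0.10 in 3F + IL6 clones and 0.74 ± 0.10 in 4F clones (adjusted p = 0.0053 and 0.00065). The 3F + IL6 call of Hoxc13 was lost after quantile normalization, at 0.06 (adjusted p = 0.64).

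The remaining calls rest on few reads. Hoxb6 corresponded to 6 and 7 reads in 3F + IL6 clones, against 1 and 0 in ES cells, Hoxc10 to 5 and 11 reads, against 1 and 0, and Hoxd10 to 4 and 7 reads, against 0 and 0. These 3 rose in 3F + IL6 clones by 0.41 ± 0.11, 0.35 ± 0.10 and 0.28 ± 0.09 on the log2 scale (SE; limma adjusted p = 0.013, 0.020 and 0.025). In 4F clones Hoxc12 corresponded to 2 and 2 reads, against 0 and 0 in ES cells, and Hoxd4 to 6 and 6 reads, against 1 and 0, with differences of 0.26 ± 0.08 and 0.23 ± 0.08 (adjusted p = 0.025 and 0.035). All 5 calls were lost under at least 1 alternative, including the removal of either ES library for each but Hoxb6, which lost its call without ES library 2 (adjusted p = 0.078). Exons of Hoxc10 overlap those of Hoxc5, exons of Hoxd4 overlap those of Hoxd3 and of an antisense RNA, and exons of Hoxd10 overlap a predicted gene, so these 3 values are uncertain in that respect too.

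**Figure D3:**
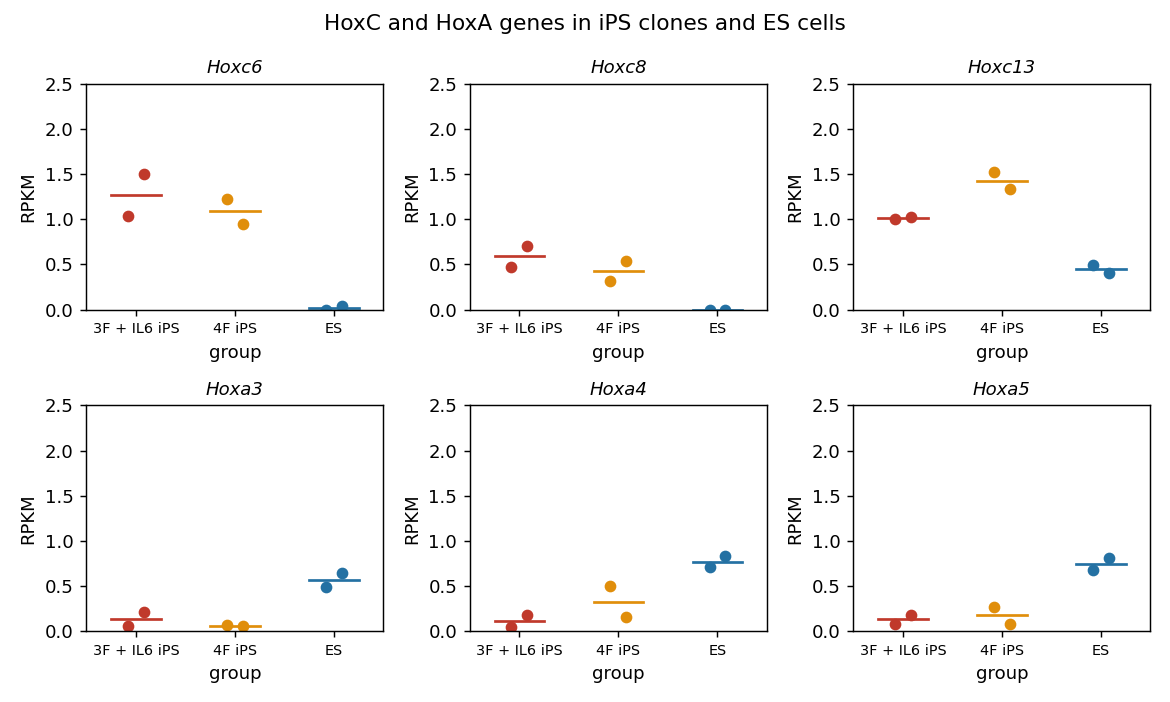
RPKM of Hoxc6, Hoxc8 and Hoxc13 (top) and Hoxa3, Hoxa4 and Hoxa5 (bottom) in 3F + IL6 iPS, 4F iPS and ES; points are libraries and lines are means. The HoxC genes shown are higher in the clones and the HoxA genes shown are higher in ES cells, with Hoxa5 at 0.676 and 0.817 RPKM in ES.

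In HoxA, Hoxa5 was lower in the clones than in ES cells, as was Hoxa3 in the fit with no filter. Hoxa5, which acts in lung and axial skeleton, had 0.0794 and 0.187 RPKM in 3F + IL6 clones and 0.270 and 0.0847 RPKM in 4F clones, against 0.676 and 0.817 RPKM in ES cells. Hoxa5 fell by 0.62 ± 0.13 and by 0.57 ± 0.13 (SE; limma adjusted p = 0.0045 and 0.0061). Hoxb2 fell in 4F clones by 0.59 ± 0.10 (adjusted p = 0.0019); in 3F + IL6 clones its difference from ES cells was -0.20 ± 0.10 (adjusted p = 0.13), and 3F + IL6 clones differed from 4F clones by 0.39 ± 0.10 (adjusted p = 0.098). Hoxa3, which missed the filter, corresponded to 2 and 8 reads in 3F + IL6 clones and 2 and 2 in 4F clones, against 20 and 25 in ES cells; without the filter it was called lower in both (log2 differences -0.47 ± 0.08 and -0.56 ± 0.08, limma adjusted p = 0.0045 and 0.0020). In that fit Hoxa4 differed from ES cells by -0.67 ± 0.15 in 3F + IL6 clones (adjusted p = 0.013) and by -0.43 ± 0.15 in 4F clones (adjusted p = 0.058), and the kinds of clone differed by -0.24 ± 0.15 (adjusted p = 0.42). Exons of Hoxa3 overlap a predicted gene on the same strand and several genes on the opposite strand. Exons of Hoxa4 overlap a predicted gene on the opposite strand. Without strand information, reads of Hoxa3 and Hoxa4 cannot be told apart from reads of these genes. Hoxa5 overlaps no exon of another gene.

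Some markers of other cell types were also higher in ES cells. Over all genes 30.3% were called lower in 3F + IL6 clones and 33.5% in 4F clones than in ES cells. Of 3 tested neural markers 2 were lower in each kind of clone. Among them was Pax6, an eye and neural factor, with 0.163 and 0.110 RPKM in 3F + IL6 clones and 0.106 and 0.124 RPKM in 4F clones, against 6.25 and 6.13 RPKM in ES cells. The summed neural list was 22.6 and 36.0 RPKM in 3F + IL6 clones and 26.7 and 27.8 RPKM in 4F clones, against 41.4 and 41.9 RPKM in ES cells, where Neurog2 was listed at 0. Of the mesoderm markers 1 could be tested, Eomes, and it was lower in each kind of clone than in ES cells. Of 2 tested endoderm markers, Gata6 was lower in each kind of clone and Gata4 was not called, at -0.10 ± 0.15 in 3F + IL6 clones and 0.12 ± 0.15 in 4F clones (SE; limma adjusted p = 0.59 and 0.49). Tbx6, a mesoderm gene that missed the filter, had 0.566 and 0.573 RPKM in 3F + IL6 clones and 0.395 and 0.372 RPKM in 4F clones, against 0.111 and 0.156 RPKM in ES cells. The part of these markers in the HoxA result was not tested.

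The cluster leaders other than Hoxc6 were not called between clones and ES cells. Hoxb9, Hoxd13 and Hoxa10 differed from ES cells by -0.05 ± 0.15, 0.01 ± 0.12 and 0.04 ± 0.09 in 3F + IL6 clones and by -0.30 ± 0.15, 0.11 ± 0.12 and -0.12 ± 0.09 in 4F clones (SE; limma adjusted p = 0.77, 0.93, 0.73, 0.11, 0.45 and 0.28). Under quantile normalization Hoxb9 and Hoxa10 were called lower in both kinds of clone and Hoxd13 in 3F + IL6 clones, so these calls depend on the scaling.

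Hox levels in the clones were set beside those of 12 fibroblast markers. The range of these markers is so wide that Hoxc6, Hoxb9 and Hoxd13 all lay within it, so lying there sets no Hox gene apart. The excess over ES cells, as a share of the MEF mean, was 7.17% in 3F + IL6 clones and 6.15% in 4F clones for Hoxc6, 5.14% and 3.73% for Hoxc8, and 2.72% and 1.69% for Hoxc10. It was far larger for Hoxc13, at 42.8% and 73.7%, so the HoxC genes ranged widely too. For the collagen gene Col1a1 it was 4.84% and 4.02%, for Thy1, a surface protein of fibroblasts, 2.24% and 1.81%, and for the limb and mesenchyme factor Prrx1 4.55% and 2.48%. Col3a1, another collagen gene, had 23.7% and 11.8%. The 12 fibroblast markers ranged widely, between -5.73% and -3.45% for Twist1 and 203.8% and 83.3% for the proteoglycan Lum, with Dcn, another proteoglycan, at 161.7% and 80.9%. Hoxb9, at the level of Hoxc6 in MEF, had no such excess, with -0.39% and -2.30%, and Hoxd13 had 0.13% and 1.19%. Fibroblast transcripts and HoxC levels were higher in the same libraries, and their part in the HoxC result was not tested.

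**Figure D4:**
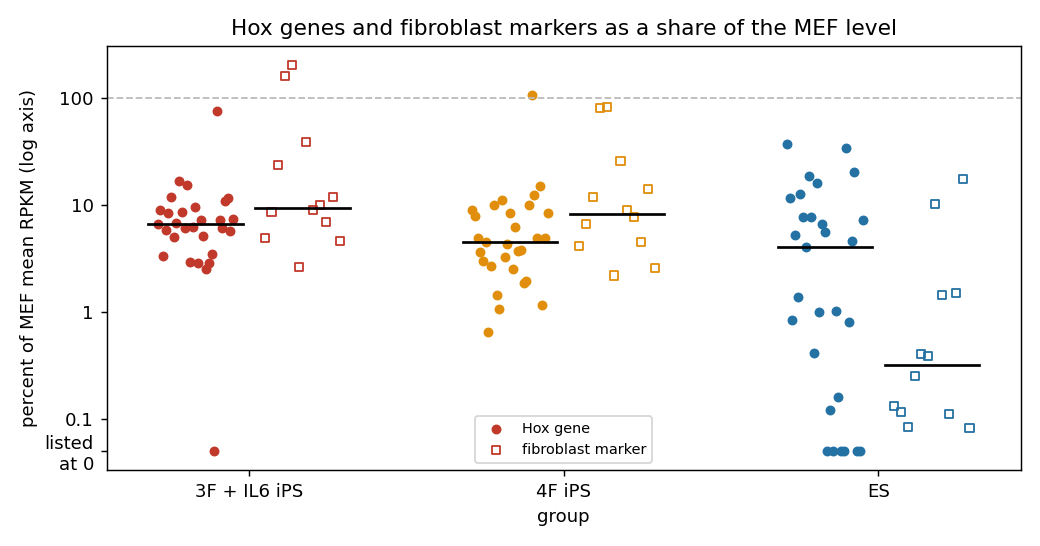
Percent of the MEF mean RPKM (log axis) for the 29 Hox genes with a MEF mean of at least 1 RPKM (circles) and 12 fibroblast markers (squares) in 3F + IL6 iPS, 4F iPS and ES; black lines are medians and the lowest tick holds genes listed at 0. Hox medians are 6.70%, 4.56% and 4.03%, while the median of the fibroblast markers lies above the Hox median in both kinds of clone and below it in ES cells.

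Between the kinds of clone, limma called 0 Hox genes higher and 0 lower in 3F + IL6 clones than in 4F clones, where 0.773% and 0.568% of all genes were called. At an unadjusted p under 0.05, 3 of the 29 were higher and 2 lower, where 14.5% and 9.69% of all genes were. The leaders differed by 0.16 ± 0.09 for Hoxa10, 0.25 ± 0.15 for Hoxb9, 0.11 ± 0.12 for Hoxc6 and -0.10 ± 0.12 for Hoxd13 on the log2 scale (SE; limma adjusted p = 0.32, 0.34, 0.60 and 0.65). The 3F + IL6 clones differed from each other: clone 2 was above clone 1 in 28 of the 38 Hox genes and below it in 9, while 60.3% of all genes with unequal values were above. Without clone 1, 5 of the 29 tested Hox genes were called higher in 3F + IL6 clones than in 4F clones and 0 lower, where 23.7% and 12.7% of all genes were called, so the members' share was below that of all genes. The 5 were Hoxa11, Hoxb2, Hoxb3, Hoxb7 and Hoxd10.

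Of the RNAs that lie inside the clusters, 8 were listed in the tables. Hoxa11as, transcribed opposite to Hoxa11, had 0.243 and 0.231 RPKM in 3F + IL6 clones, 0.358 and 0.0432 RPKM in 4F clones and 0.0507 and 0 RPKM in ES cells, against 3.37 and 3.73 RPKM in MEF. Its log2 differences from MEF were -1.88 ± 0.13, -1.93 ± 0.13 and -2.15 ± 0.13 (SE) in 3F + IL6 clones, 4F clones and ES cells. Hoxa11as and Hoxa11 both passed the filter only through MEF, so both had to be lower and these values are a description. Without strand information, reads of this pair cannot be told apart. Hotair, a HoxC antisense RNA, was listed at 0 in all but the MEF libraries, which had 0.176 and 0.197 RPKM. The microRNA host sites Mir10a, Mir10b, Mir196a-2, Mir196b and Mir615 were listed at 0 in all libraries, and poly-A libraries do not measure mature microRNAs. Mir196a-1, next to Hoxb9, corresponded to 0 and 0 reads in 3F + IL6 clones, 1 and 0 in 4F clones, and 4 and 3 in ES cells, against 9 and 7 in MEF. The mature forms, which are known to target Hox transcripts, share the seed in capitals (bases 2 to 8; RefSeq, GRCm38.p6).
miR-196a-5p: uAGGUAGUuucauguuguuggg
miR-196b-5p: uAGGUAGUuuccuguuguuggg

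Genes that work with or on the clusters were read from lists. Of 8 tested TALE cofactors, which bind DNA with Hox proteins, 3 were higher and 5 lower in each kind of clone than in MEF (median log2 difference -1.13 and -1.43, against 0.26 and 0.25 over all genes), and 4 were higher and 4 lower in ES cells (median -0.21, against 0.27). Over all genes 49.4%, 49.2% and 49.7% were called higher and 32.6%, 34.4% and 32% lower than in MEF in 3F + IL6 clones, 4F clones and ES cells. Meis2 had 0.164 and 0.255 RPKM in 3F + IL6 clones and 0.117 and 0.189 RPKM in 4F clones, against 7.13 and 6.08 RPKM in ES cells, with differences of -2.65 ± 0.10 and -2.72 ± 0.10 (SE; limma adjusted p = 4.6e-06 and 4.4e-06). Meis1 fell by 0.74 ± 0.09 and by 0.69 ± 0.09 (adjusted p = 0.00034 and 0.00043). Meis1 and Meis2 were thus lower in the clones than in ES cells, while Meis3 overlapped. Meis3 had 1.01 and 1.97 RPKM in 3F + IL6 clones and 1.14 and 0.984 RPKM in 4F clones, against 1.21 and 0.938 RPKM in ES cells.

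Of 9 tested genes of Cdx and retinoid signalling, which act upstream of Hox genes, 4 were higher and 2 lower in 3F + IL6 clones than in ES cells (median 0.23, against 0.01 over all genes), and 3 were higher and 3 lower in 4F clones (median -0.18, against 0.00). Over all genes 33.1% were called higher and 30.3% lower in 3F + IL6 clones, and 33.7% and 33.5% in 4F clones, so these counts of a short list do not set it apart. Rarg, a retinoic acid receptor, had 39.1 and 51.2 RPKM in 3F + IL6 clones and 30.5 and 30.4 RPKM in 4F clones, against 74.5 and 72.5 RPKM in ES cells. It fell by 0.70 ± 0.11 and by 1.24 ± 0.11 (SE; limma adjusted p = 0.0016 and 0.00012). Cyp26b1, an enzyme that breaks down retinoic acid, had 4.92 and 8.75 RPKM in 3F + IL6 clones and 4.03 and 4.26 RPKM in 4F clones, against 0.0657 and 0.0552 RPKM in ES cells. Cyp26b1 rose by 2.84 ± 0.21 and by 2.28 ± 0.21 (adjusted p = 5.2e-05 and 0.00013). Cdx2, a direct activator of Hox genes in the embryo, missed the filter, with 0.0692 and 0 RPKM in 3F + IL6 clones and 0.0393 and 0 RPKM in 4F clones, against 0.796 and 1.05 RPKM in ES cells. Cdx1 and Cdx4 missed it too, and each overlapped between both kinds of clone and ES cells. Cdx1 had 0.469 and 0.602 RPKM in 3F + IL6 clones, 0.339 and 0.273 RPKM in 4F clones and 0.508 and 0.305 RPKM in ES cells.

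All 21 genes of the Polycomb list, whose proteins keep Hox clusters silent, were tested. In each kind of clone 14 were higher and 7 lower than in MEF (median 1.16 and 1.09, against 0.26 and 0.25 over all genes), and in ES cells 13 were higher and 5 lower (median 1.33, against 0.27). Cbx7 had 45.6 and 47.0 RPKM in 3F + IL6 clones, 43.9 and 45.2 RPKM in 4F clones and 51.0 and 51.9 RPKM in ES cells, against 0.979 and 1.03 RPKM in MEF. Jarid2 and Phc1 were also higher than in MEF in all 3 groups, by 3.53 to 4.69 on the log2 scale (limma, all called). Of 12 tested neighbours of the clusters, 8 were higher and 1 lower in 3F + IL6 clones than in MEF, 9 higher and 0 lower in 4F clones, and 9 higher and 1 lower in ES cells (median 0.91, 1.05 and 0.98, against 0.26, 0.25 and 0.27 over all genes). Higher calls were also the more frequent over all genes in these comparisons with MEF. Over all genes 49.4%, 49.2% and 49.7% were called higher and 32.6%, 34.4% and 32% lower in 3F + IL6 clones, 4F clones and ES cells. Skap2, next to HoxA, had 28.3 and 26 RPKM in 3F + IL6 clones, 29.2 and 28.3 RPKM in 4F clones and 44.6 and 45.8 RPKM in ES cells, against 8.62 and 9.44 RPKM in MEF. Products of Trithorax genes and demethylases act against Polycomb silencing. Their list of 10 also holds Ctcf, a gene of neither kind. Of the 10, 7 were higher in each kind of clone and 10 in ES cells than in MEF, and 0 were lower (median 0.66, 0.62 and 1.20, against 0.26, 0.25 and 0.27 over all genes).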

How the data were processed

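RNA was measured in 8 libraries, in 4 groups of 2. Oligo-dT beads enriched poly-A RNA before TruSeq library preparation, per the labels' protocols, and reads were 50 bases long. The submitters' processing notes name mm10 as the build; aligner, counter and gene models: not given in the sources used here. The authors' deposited tables hold 1 value per symbol; no header names the unit or the scaling. These deposited values were read as RPKM. Low values of a gene stand in whole-number ratios between libraries, after scaling by a constant for each library pair, which shows scaling by library but not by length. Whole reads were recovered for 32 of the 38 Hox genes, within 0.02 read, but only for 61.1% of 3813 low symbols, so no count test was run. The gene length that these reads imply lay within 10% of a GENCODE transcript for 26 of the 32. It did not for others, such as Hoxc11 at 889 bases against 2021, so ranks between genes are less certain there. A second header line inside each file was dropped.

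limma 3.58.1 (R 4.3.3, trended variance, no replicate block) was fitted to log2(RPKM + 1) for all 8 libraries and 13200 genes, with Benjamini-Hochberg adjustment in each of 6 comparisons and a threshold of 0.05. The fit was tested on simulated data. Full statistics are printed for up to 6 called members with the largest change in each direction whose groups do not overlap, and for the highest member of each cluster. Differences from MEF of Hox genes and Hox cluster RNAs that passed the filter only through MEF are given without p. From related lists at most 4 genes with the smallest p are named per comparison. Cdx1, Cdx2, Cdx4, Hotair, Lum, Meis3, Tbx6, Twist1, the MEF comparisons of Hoxc13, Hoxb2 in 3F + IL6 clones against ES cells and 4F clones, and the unfiltered Hoxa3 and Hoxa4 values are outside this rule and were chosen after their values were seen. Of 39 symbols that fit the naming rule, 1 is not reported here and enters no Hox count or sum. The members and lists were chosen with earlier results of these data known. Coordinates are 1-based, from GENCODE M21; promoters and microRNAs are from RefSeq. Of the 38 genes, 23 overlap no exon of another gene; reads of the others may be shared. Python 3.11.15 with pandas 2.3.3 and matplotlib 3.10.9 was used. Alternatives were pseudocounts of 0.1 and 0.5, other filters and scalings, other variance models, the replicate block and leaving out each library.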

Additional observations from a re-analysis of the deposited data

How the results depend on the processing

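With a mean of at least 5 RPKM required, Hoxb9 was the only member tested: 1 was called lower than MEF in each pluripotent group, and 0 higher and 0 lower against ES cells. Quantile normalization gave 2 higher and 10 lower in 3F + IL6 clones against ES cells, and 3 higher and 10 lower in 4F clones. Without the filter, 3 were lower in 3F + IL6 clones than in ES cells. With a pseudocount of 0.1, 9 were higher in 4F clones than in ES cells. Leaving out 1 library at a time gave 3 to 9 higher in 3F + IL6 clones against ES cells, the lowest without ES library 2, and 3 to 6 in 4F clones, with 3 when either 4F or either ES library was left out. It gave 0 to 5 higher in 3F + IL6 against 4F clones, the 5 without 3F + IL6 clone 1. It left 28, 28 and 29 lower than MEF in 3F + IL6 clones, 4F clones and ES cells. Detection at 0.5 RPKM found 4, 4 and 5 Hox genes in 3F + IL6 clones, 4F clones and ES cells, and at 2 RPKM 0, 0 and 0, against 19 in MEF. The cause of these changes was not tested.

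Values that changed sign were not called in the fit reported. In 3F + IL6 clones against ES cells, quantile normalization gave -0.32 for Hoxa10 and -0.39 for Hoxd13, and median centring -0.014 for Hoxd13. Leaving out 1 library at a time gave -0.0204 (without 3F + IL6 clone 2) to 0.098 for Hoxa10. It gave -0.22 to 0.11 (without 3F + IL6 clone 1) for Hoxb9, which was 0.027 without ES library 2. For Hoxd13 it gave -0.11 (without ES library 1) to 0.14, with -0.098 without 3F + IL6 clone 2. In 4F clones against ES cells, Hoxd13 was -0.24 with quantile normalization and -0.017 (without ES library 1) to 0.24 with 1 library left out. Between 3F + IL6 and 4F clones, that range was -0.0357 (without 3F + IL6 clone 2) to 0.26 for Hoxc6 and -0.21 to 0.014 (without 3F + IL6 clone 1) for Hoxd13. The median of all genes against MEF was 0.26, 0.25 and 0.27 as deposited, 0.15, 0.17 and 0.18 with median centring and 0.06, 0.09 and 0.15 with quantile normalization.

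Deviations of same-numbered libraries correlated by -0.055 to 0.214, the highest between ES cells and MEF. As each group has 2 libraries, this check cannot settle whether they were paired. With the replicate block, 4 Hox genes were higher in 4F clones than in ES cells, Hoxd4 losing its call (limma adjusted p = 0.053), and the other counts of called Hox genes stayed as they were. Calls on a few reads, such as those of Hoxc12, Hoxd4 and Hoxd10, are limited by depth.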
